A study of Mus musculus with 8 samples.

Results

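The cells described here are the B cells (Bc) of a single-cell RNA-sequencing study of leukocytes in the mouse brain and its membranes after stroke. They are the cells that the authors' deposited annotation places in the cluster Bc, 1035 of 32457 annotated cells, and the cluster Tc of T cells (1830 cells) from the same libraries served as the comparison. The study sequenced 8 libraries of leukocytes from C57BL/6 mice, given in the study's methods as males of 10 to 16 weeks. Antibody to CD45 was injected into the circulation before perfusion, and cells that were CD45+ but had not taken up that antibody (CD45iv-) were sorted, so the population is depleted of leukocytes still in the blood. Each library is 1 tissue in 1 state. Brain parenchyma was sampled in control mice, 24 h after transient middle cerebral artery occlusion (MCAO, a filament model of ischemic stroke) in 2 libraries, and 72 h after MCAO in 1 library. Pia and dura were each sampled in control mice and 24 h after MCAO, with 1 library per state. The sources used here call the controls both untreated and sham-operated, 1 library carries a tissue label of pia (followed here, as control pia) under a title that speaks of brain parenchyma, and the study's reporting describes replicated experiments pooled per compartment without the mice behind each library, so p-values below measure only the spread between libraries.

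Bc numbered 7 in control brain, 7 and 161 in brain 24 h replicates 1 and 2, 161 in brain 72 h, 60 in control pia, 48 in pia 24 h, 153 in control dura and 438 in dura 24 h. Unique molecular identifiers (UMIs, each standing for 1 captured transcript) summed over the Bc of a library ranged from 7155 to 726262, and the median per cell from 810.5 in dura 24 h to 1642 in brain 24 h replicate 2. The 2 brain libraries with 7 Bc hold too few cells for gene tests, which used the other 6 libraries unless stated. The 2 brain libraries with 161 Bc each, brain 24 h replicate 2 and brain 72 h, also stand apart technically. Their tables list 31053 genes where the other 6 list 32285, and they share at most 2 cell barcodes with any of the other 6, while the other 6 share 10 to 32 with each other. The study's methods also name different versions of the library kit, and fits with kit version as a term are given at the end. Brain tissue was moreover digested by another protocol than the membranes. A difference between the 161-cell brain libraries and the membranes therefore cannot be told apart from this difference between library sets. The 7-cell brain libraries belong to the same set as pia and dura, and their values are given beside several genes and groups.

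B cells carry an antigen receptor built of immunoglobulin heavy and light chains, with the transducing pair CD79A and CD79B behind it. Precursors rearrange the immunoglobulin genes with the recombinase RAG1 and RAG2 and display a surrogate light chain, immature cells express IgM, mature follicular cells add IgD and the low-affinity IgE receptor CD23 (Fcer2a), and antibody-secreting cells shut down the receptor programme, devote much of their mRNA to immunoglobulin and add the joining chain (Jchain) that links IgA and IgM into polymers. B cells also present antigen on MHC class II. In the skull, dura lies against bone marrow, a tissue of B cell formation.

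The markers of the label were present. In CPM (UMIs of a gene per 1000000 UMIs) over Bc without the immunoglobulin-rich cells described below, Cd79a was at 2654 in control brain, 4359 and 3112 in brain 24 h replicates 1 and 2, 2531 in brain 72 h, 1892 and 1918 in control pia and pia 24 h, and 2486 and 3019.6 in control dura and dura 24 h. In Tc of the same libraries Cd79a did not pass 8.33 CPM. Ms4a1, which encodes CD20, was between 319.6 and 1331 CPM in these Bc and at 0 in the Tc of every library. At least 1 UMI of Cd79a was found in 85.7% to 100% of Bc per library. The 12 T cell markers summed to between 0 and 281 CPM in Bc and between 5930 and 13818 CPM in Tc.

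B cell genes are known for an octamer in their promoters, ATGCAAAT in either orientation, which OCT2 (Pou2f2) and its coactivator OBF1 (Pou2af1) bind. In RefSeq promoter windows of GRCm38.p6, 250 bases upstream of each start, 526 of 32851 windows (1.6%) hold it. Of the 15 genes with the highest Bc-to-Tc ratios (below), 7 had an entry, with 8 windows, and 1 window held the octamer. Of the 40 members of the receptor, transcription factor and MHC class II lists that are not among those 15, 31 had an entry, with 39 windows, and 2 windows held it. The 3 sites are shown because they are the matches among these genes, with the octamer in capitals; Vpreb3 and Blnk were higher in Bc than in Tc, and Prkcb, a kinase of receptor signalling, did not meet that criterion; a match of letters is a description and not evidence of binding. The first lies 45 bases before the start of Vpreb3 at chr10:75948244-75948273 (+), the second 70 bases before Prkcb at chr7:122289044-122289073 (+), and the third 130 bases before Blnk at chr19:40994333-40994362 (-), each written 5′ to 3′ along its gene.
Vpreb3: tcagtgggctgATTTGCATgctctattgtg
Prkcb: gcctgggtttcATGCAAATgagggaggcgg
Blnk: tactggaagggATTTGCATgcccaataagg

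Bc were scarce in control brain and in the first 24 h brain library, and most frequent in dura. They made up 0.163% of annotated cells in control brain (95% exact binomial interval 0.0655 to 0.335), 0.153% in brain 24 h replicate 1, 4.64% (3.97 to 5.40) in brain 24 h replicate 2 and 2.66% (2.27 to 3.10) in brain 72 h. In pia the share was 2.14% (1.63 to 2.74) in control and 1.22% (0.904 to 1.62) at 24 h. In dura it was 5.44% (4.63 to 6.35) in control and 9.69% (8.85 to 10.6) at 24 h. The 24 h dura library was thus above its control and the 24 h pia library below its control beyond counting error, in opposite directions, but with 1 library per state neither difference has a replicate check. The 2 brain 24 h libraries, which are replicates of 1 state, differed by far more than either. They belong to different library sets, so their gap cannot be told apart from that difference. It does not measure the spread between libraries of 1 set, to which those of dura and pia belong. Such intervals cover counting error only.

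The order of the libraries depended on what Bc were counted against. Among the cells of the 5 lymphoid clusters Bc made up 10.3% in control brain, 9.72% and 36.8% in brain 24 h replicates 1 and 2, 24.0% in brain 72 h, 21.4% in control pia, 8.21% in pia 24 h, 13.9% in control dura and 18.7% in dura 24 h. Brain 24 h replicate 2 was highest on this measure, where dura 24 h had been highest among all cells. Among annotated cells of at least 1000 UMIs the share was 7.72% in brain 24 h replicate 2 and 4.44% in dura 24 h. The part of the sort gate and tissue yield was not tested.

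**Figure D1:**
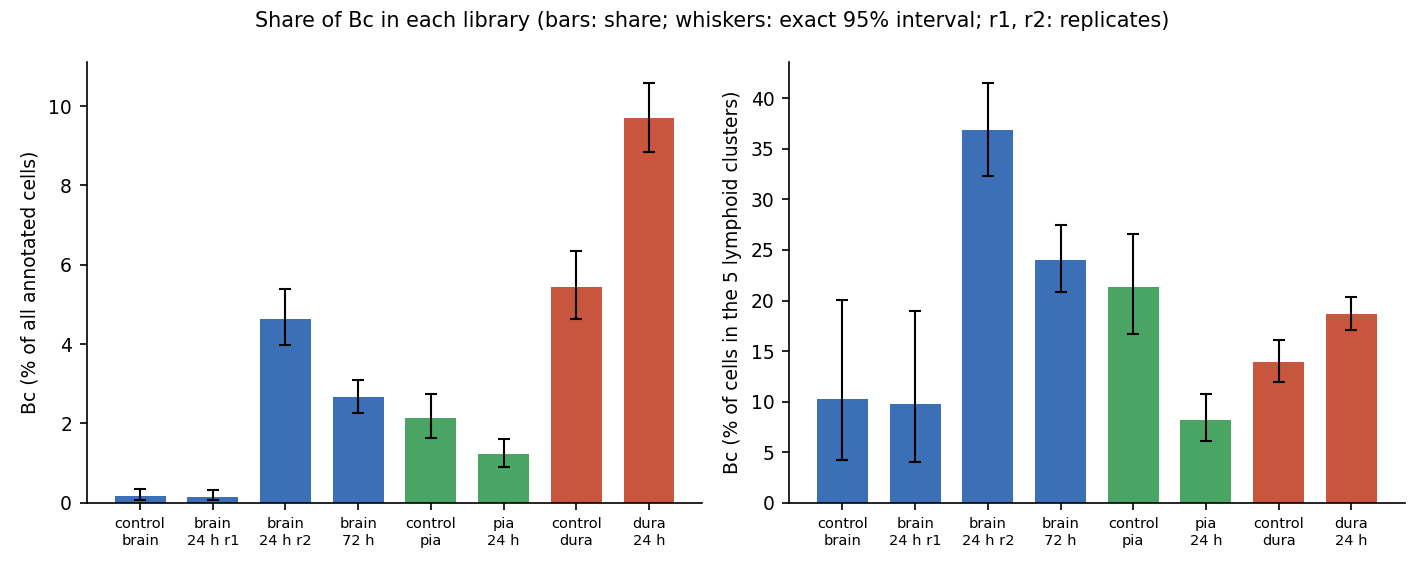
Share of Bc in each library, as a percentage of all annotated cells (left) and of the cells of the 5 lymphoid clusters (right), with whiskers for the exact 95% binomial interval; r1 and r2 are the replicates of brain 24 h. Dura 24 h is highest on the left at 9.69%, brain 24 h replicate 2 on the right at 36.8%, and the replicates of brain 24 h lie at 0.153% and 4.64% on the left.

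Set against Tc, Bc carried the receptor programme. Clustering drew on these very counts, so this contrast is a description and has no test: a gene was counted as different where the mean log2 ratio over the 6 libraries was at least 2-fold with the same sign in all 6. Ratios used a pseudocount of 0.5. Where Tc held 0 UMIs, the ratio is a lower bound and its spread depends on depth. This holds for Ms4a1 in every library and for Cd79a in control pia, pia 24 h and control dura. It also holds for Cd79b in brain 24 h replicate 2 and control pia. Of 3371 genes with a mean of at least 50 CPM in Bc or Tc, 748 met this (22.2%), 233 higher in Bc (6.91%) and 515 lower (15.3%). The excess of lower genes came with the 39 immunoglobulin-rich cells: the median ratio over all genes was -0.43 (log2), and without the immunoglobulin-rich cells it was -0.00329, with 371 genes higher and 378 lower of 3648. The log2 ratio of Cd79a was 9.17 ± 0.73 (SD over 6 libraries), that of Cd79b 7.83 ± 1.38, that of Ms4a1 8.27 ± 0.97, that of Ly6d, an early B lineage surface marker, 8.94 ± 0.82, and that of Ebf1, a transcription factor that specifies the lineage, 8.01 ± 0.80. Fcmr, the IgM Fc receptor, stood at 7.53 ± 0.55 and H2-DMb2, a peptide-loading chain of MHC class II, at 7.07 ± 0.32, the smallest spread among the 15 highest. Jchain, at 7.10 ± 5.29, had the widest, since it ranged from 0.03 in a brain library where it was at 0 in both clusters to 12.23. That 0.03 comes from the pseudocount alone, so the sign of Jchain was not measured in that library. Its place among the 15 highest rests on the other libraries. The other genes among the 15 highest were Igkc, Iglc1, Iglc2, Iglc3, Mzb1, Vpreb3 and Fcrla. The 10 lowest were Ccl5, Trac, Trbc2, Nkg7, Cd3d, Cd3e, Ms4a4b, Cd3g, Cd8b1 and Skap1, genes of the T cell receptor complex and of cytotoxic lymphocytes.

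By group, 17 of 18 measured genes of the B cell receptor and its signalling were higher in Bc (median log2 ratio 4.50, against -0.43 over all genes), among them the coreceptor chain Cd81, the kinases Syk, Btk, Lyn and Blk, the adaptor Blnk and the inhibitory receptors Cd22, Cd72, Fcgr2b and Siglecg. Of 14 transcription factors of the lineage 10 were higher (median 2.78), Pax5, Ebf1, Spib, Pou2af1, Pou2f2, Bcl11a, Irf8, Mef2c, Foxp1 and Spi1, and none was lower. All 10 MHC class II genes were higher (median 4.19), including the transactivator Ciita. Of 13 measured interferon response genes 9 were lower and none higher (median -1.59), and of 9 heat shock genes 4 were lower and none higher (median -0.79). These group counts and medians rest on all Bc and were not repeated without the immunoglobulin-rich cells. Isg15, a ubiquitin-like interferon-induced protein, was at 0 to 42.4 CPM in Bc without the immunoglobulin-rich cells and at 44.7 to 287 CPM in Tc. Of 10 genes for B cell cytokines only 2 were abundant enough to be measured in this contrast.

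Immunoglobulin transcripts were distributed very unevenly among Bc. They took 35.1% of Bc UMIs in dura 24 h, 37.8% in control dura, 25.9% in pia 24 h and 7.69% in control pia, but 2.03% in brain 24 h replicate 2, 1.55% in brain 72 h, 1.95% in brain 24 h replicate 1 and 5.24% in control brain. In Tc the same share was between 0.0133% and 0.128%. Nearly all of the membrane excess sat in 39 cells whose UMIs were over 20% immunoglobulin, called Ig-rich here. No Bc lay between 20% and 40%, the 39 cells spanned 41.8% to 84.4% with a median of 66.1%, and the highest of the other 996 Bc reached 16.7%. That cell came from control brain, and it held all 41 Igha and all 37 Jchain UMIs of that library's Bc. Without the Ig-rich cells the immunoglobulin share of dura Bc was 2.22% in control and 2.08% at 24 h, and that of pia Bc 1.09% and 0.835%.

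Ig-rich cells were found in the membranes and were not detected in the Bc of the brain at this depth. Control dura held 13 of 153 Bc (8.50%, exact 95% interval 4.60 to 14.1), dura 24 h 22 of 438 (5.02%, 3.17 to 7.51), control pia 2 of 60 and pia 24 h 2 of 48. Brain 24 h replicate 2 and brain 72 h held 0 of 161 each, which allows a share of up to 1.86%, and the 2 libraries of 7 Bc held 0, which allows up to 42.9% and so bounds little. The intervals of the 2 dura libraries overlap, and those of the pia libraries include both dura values. No cell of another cluster was Ig-rich, the highest reaching 1.91%.

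**Figure D2:**
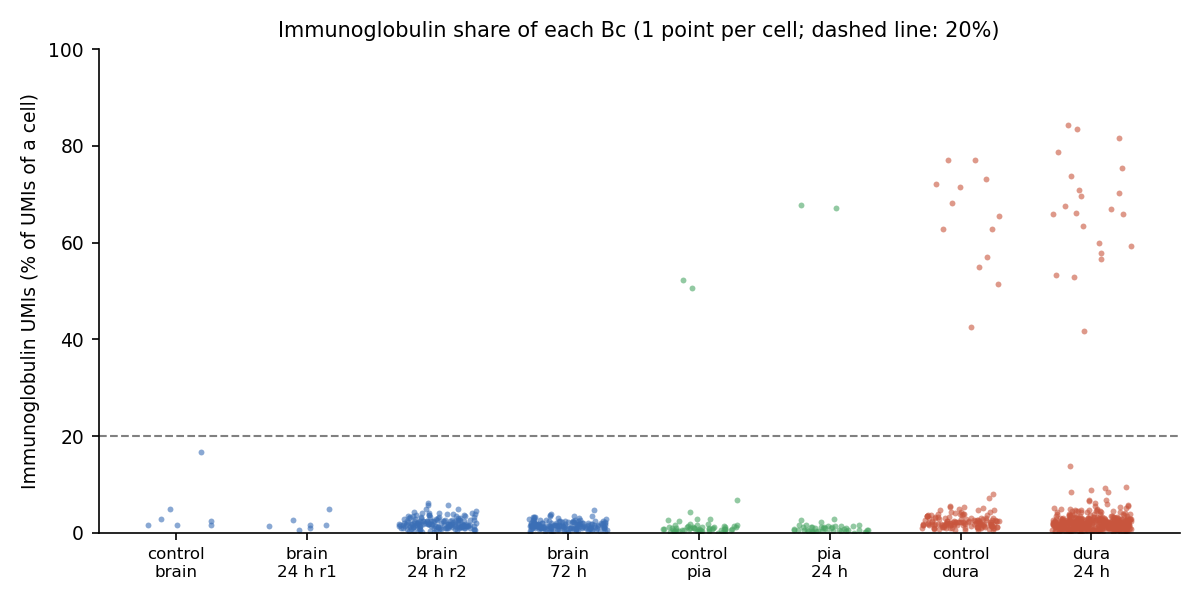
Immunoglobulin UMIs as a percentage of all UMIs of a cell, 1 point per Bc, by library, with the 20% limit dashed. The 39 Ig-rich cells lie between 41.8% and 84.4%, 13 of them in control dura and 22 in dura 24 h, and no brain Bc passes 16.7%.

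Each Ig-rich cell was dominated by 1 heavy chain, which made up over 90% of heavy chain UMIs in 39 of 39 cells, and 1 light chain passed 90% in 37 of 39. Igha (IgA) led in 18 cells, Ighm (IgM) in 16, Ighg1 in 2, Ighg2c in 2 and Ighg2b in 1. The leading heavy chain was Igha in 9 of 13 Ig-rich cells of control dura and in 7 of 22 of dura 24 h, where Ighm led in 11. Igkc led among light chains in 33 cells and Iglc1 in 5. The constant regions of the lambda chains, and those of the IgG subclasses, are near-identical copies between which the counting could split reads, so calls among them are uncertain. Ig-rich cells were large in content, with a median of 14506 UMIs against 925 in the other Bc.

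Outside immunoglobulin, Jchain, Xbp1 and Edem1 took a larger share of the UMIs of Ig-rich dura cells. Ms4a1, Ebf1, Spib, Pax5 and H2-Aa took a smaller one. The shares of Cd79a and Cd79b were lower in them and that of Cd81 was higher. The following levels are CPM of non-immunoglobulin UMIs, first in the Ig-rich and then in the other Bc of a library, and are a description of cells chosen on their immunoglobulin. They are not counts per cell, and the large share of Jchain lowers those of other genes. In dura 24 h the 22 Ig-rich cells held 172 Cd79a and 116 H2-Aa UMIs, and the 416 other Bc held 1108 and 2167. A lower share therefore need not mean fewer transcripts per cell. Jchain was at 384756 against 202 in control dura and at 203299 against 55.7 in dura 24 h. Xbp1, the transcription factor of the secretory programme, was at 4149 against 195 and at 6562 against 161, and Edem1, which clears misfolded glycoproteins from the endoplasmic reticulum and was chosen after its values were seen, at 1549 against 50.6 and at 2427 against 58.4. Ms4a1 went the other way, 18.4 against 867 and 9.09 against 571, as did Ebf1 (18.4 against 2521 and 18.2 against 3073), Spib (0 against 939 and 0 against 832) and Pax5 (0 against 93.9 and 0 against 64.0). H2-Aa was at 166 against 4774 and at 1054 against 6031. Among receptor genes, Cd79b was at 277 against 1928 and at 391 against 2204, and Cd79a at 1180 against 2542 and at 1563 against 3084. Cd81 was higher in Ig-rich cells, at 1217 against 823 and at 1363 against 882. At least 1 UMI of Jchain and of Xbp1 was present in 39 of 39 Ig-rich cells, of Mzb1 in 37, of Sdc1, which encodes CD138, in 34 and of Cd79a in 38, but of Ms4a1 in 3 and the proliferation gene Mki67 in 1. Prdm1, a regulator of antibody-secreting cells, was seen in 1 cell only. Some markers of other cells were also higher in the Ig-rich cells of dura 24 h, where the mast cell proteases Tpsb2, Cpa3, Cma1 and Mcpt4 were at 1345 against 61.2, 409 against 16.7, 409 against 61.2 and 218 against 5.57, and the macrophage marker C1qb at 418 against 206. Macrophage markers did not all go the same way there. C1qa was also higher, at 145 against 77.9, and Apoe was lower, at 1445 against 2477. Tpsb2 was found in 7 of the 22 cells, Cma1 in 3, Cpa3 in 2 and Mcpt4 in 1, and C1qb in 12. In the Ig-rich cells of control dura the 4 proteases were at 0 and C1qb was at 36.9 against 188. Their part in the other values was not tested.

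Among the other 996 Bc, the share of lambda cells was highest in control dura, with an interval that overlaps those of dura 24 h, brain 72 h and both pia libraries. Cells with more lambda than kappa UMIs made up 30 of 140 (21.4%, exact 95% interval 14.9 to 29.2) in control dura, 52 of 407 (12.8%, 9.69 to 16.4) in dura 24 h, 13 of 159 (8.18%) in brain 24 h replicate 2, 17 of 159 (10.7%, 6.35 to 16.6) in brain 72 h, 3 of 55 in control pia (1.14 to 15.1) and 3 of 42 in pia 24 h (1.498 to 19.5), and 0 of 7 in each of the 2 other brain libraries. Iglc1, the lambda chain of some Ig-rich cells, was also at 149 and 266 CPM in the Tc of control dura and dura 24 h and at 0 in the Tc of pia. The source of these UMIs in Tc, and their part in the dura share, was not tested.

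Markers of B cell maturation were compared after thinning every cell to 500 UMIs, which equalised total depth, with Tc of the same library as background. Ig-rich cells were kept, so fewer of their 500 UMIs are left for other genes. All Bc had at least 500 UMIs, and none was left out. Vpreb3 was in a larger share of Bc in brain 24 h replicate 2 than in any of the other 5 libraries. This gene of precursor B cells, whose expression is kept until the transitional stage, was found in 46.0% of Bc in brain 24 h replicate 2 (exact 95% interval 38.1 to 54.0), 17.4% (11.9 to 24.1) in brain 72 h, 5.0% in control pia, 8.33% in pia 24 h, 24.8% (18.2 to 32.5) in control dura and 27.9% (23.7 to 32.3) in dura 24 h, and in at most 0.794% of Tc. In control brain 1 of 7 Bc had it and in brain 24 h replicate 1 0 of 7. The intervals of the 2 dura libraries overlap each other and lie above the 2 pia shares, though the interval of pia 24 h (2.32 to 20.0) reaches into that of control dura. At least 1 UMI of the pro-B and pre-B set (Rag1, Rag2, Dntt, Vpreb1, Vpreb2 and Igll1, that is the recombinase, the enzyme that adds bases at the joints and the surrogate light chain) was found in 6.21% (3.02 to 11.1) of Bc in brain 24 h replicate 2, 0.621% in brain 72 h, 3.33% in control pia, 0 of 48 in pia 24 h (up to 6.25%), 5.23% (2.28 to 10.0) in control dura and 5.71% (3.73 to 8.31) in dura 24 h, and in at most 0.156% of Tc.

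Few cells with the pro-B and pre-B set had Ighd. At full depth, 32 Bc of dura 24 h carried the set, 26 of them also Vpreb3 and 2 also Ighd, while in brain 24 h replicate 2 the counts were 13, 11 and 0. Of the 109 Bc with Vpreb3 in brain 24 h replicate 2, 29 also had Ighd, of the 42 in brain 72 h 17 did, and of the 160 in dura 24 h 16 did, where Ighd was in 56, 61 and 97 of all Bc of these libraries. The set was carried by Rag1 in 11 cells, Vpreb1 in 14, Igll1 in 15 and Dntt in 8 of dura 24 h. Ighd, the IgD chain of mature cells, was found at 500 UMIs in 23.0% of Bc in brain 72 h (16.7 to 30.3), 12.4% in brain 24 h replicate 2, 13.3% in control pia, 10.4% in pia 24 h, 11.8% in control dura and 15.5% in dura 24 h, and Fcer2a in 15.5% of Bc in brain 72 h (10.3 to 22.1) and in 2.08% to 5.71% elsewhere. Transcripts of Mki67 or Top2a were in at most 2.48% of Bc. In the authors' separate cluster of proliferating cells, 36 of 257 cells had at least 2 UMIs of Cd79a.

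**Figure D3:**
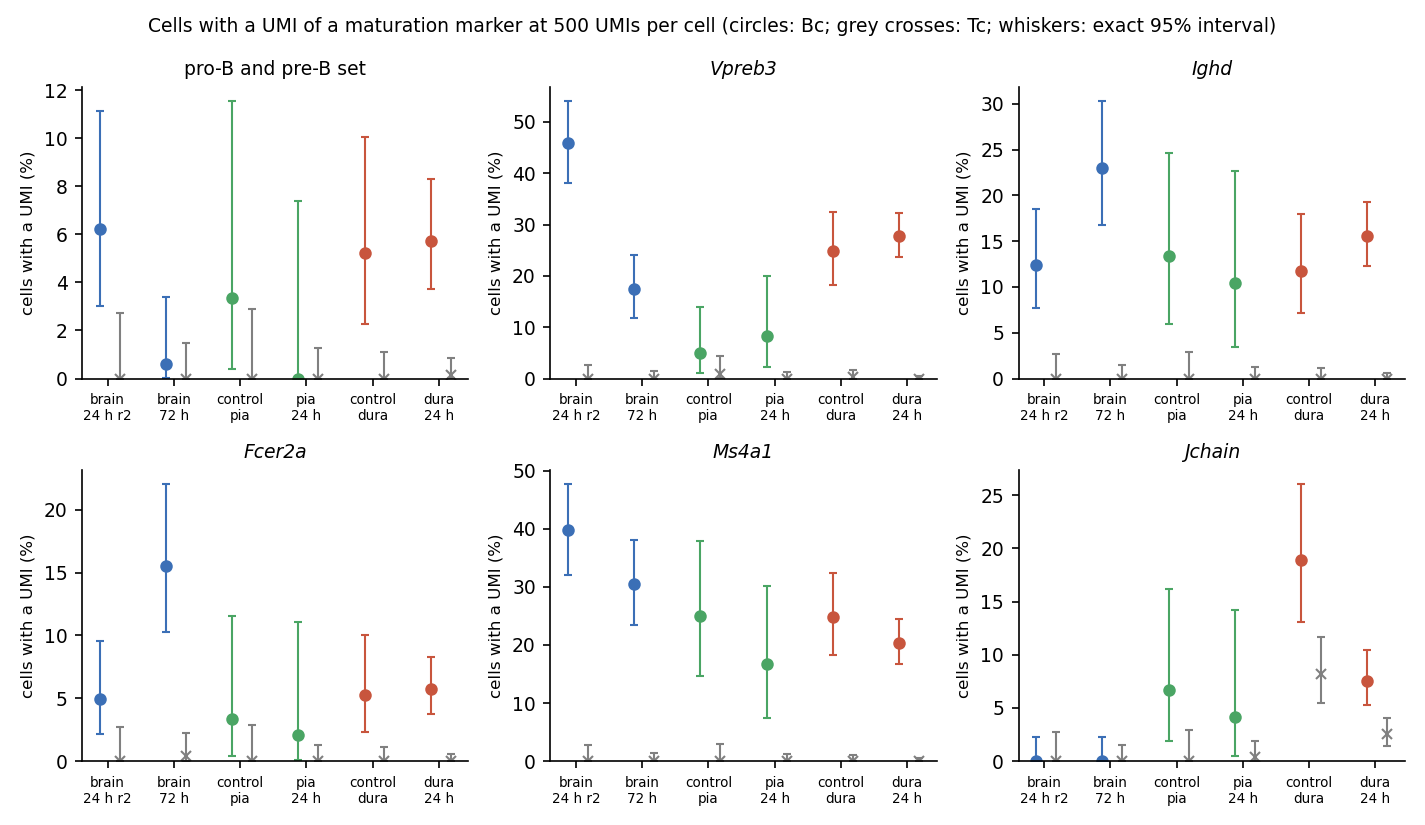
Percentage of cells with at least 1 UMI of a maturation marker after thinning to 500 UMIs, in the 6 libraries with at least 30 Bc, as circles for Bc and grey crosses for Tc with exact 95% binomial intervals. Vpreb3 runs from 5.0% in control pia to 46.0% in brain 24 h replicate 2, and Fcer2a is highest in brain 72 h at 15.5%, while Tc lie near 0 for every marker but Jchain.

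The 2 brain libraries of 161 Bc belong to 1 library set and differ in time after MCAO. As single libraries they allow values but no test. Vpreb3 stood at 1759 CPM (Poisson 95% interval 1605 to 1923) at 24 h and at 407 (318 to 513) at 72 h, Fcer2a at 135 (95.3 to 186) and 338 (257 to 436), Ighd at 347 (281 to 425) and 492 (394 to 608), and Klf2 at 2530.5 (2345 to 2726) and 3899.7 (3612 to 4204). The intervals of Ighd overlap and the others do not, and all cover counting error only. In the other brain 24 h library, with 7 Bc, Vpreb3 was at 281 CPM (34.1 to 1016), an interval that includes the 72 h value, and Klf2 at 7733 (5826 to 10066), above both. Control brain, also with 7 Bc, had Vpreb3 at 1062 CPM (458 to 2092).

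Dura and pia libraries come from 1 library set and 1 digestion protocol, and their comparison asks how B cells differ between the membranes. It was fitted with edgeR's quasi-likelihood test on UMIs summed per library, with tissue and condition (control or after MCAO) as terms, and a gene was called where the p adjusted by the Benjamini-Hochberg method was under 0.05 and the change reached 2-fold. The fit held 6 libraries and left 2 residual degrees of freedom. Its 2 brain libraries, of the other set, entered the gene filter, the scaling and the estimate of spread. No fit held dura and pia alone. Of 3739 genes 52 were called (1.39%), 24 higher in dura (0.642%) and 28 lower (0.749%). Bc of dura had more of the receptor chain Cd79b and of the transcription factor Spib, and less Klf2, Cd9, Plscr1 and Dusp1. Without the Ig-rich cells 66 of 3358 were called, and 38 of the 52 were among them. DESeq2 called 15, of which 12 were among the 52. With scaling by library size alone in place of TMM (trimmed mean of M-values) the split became 17 higher and 96 lower, and the median of all genes moved from 0.06 to -0.31.

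Klf2 encodes a zinc-finger factor that holds lymphocytes in a resting, recirculating state and drives S1pr1. In Bc without the Ig-rich cells it was at 1538 CPM in control pia and 1534 in pia 24 h, and at 607 in control dura and 668 in dura 24 h. The 2 pia libraries lay close together and the tissues did not overlap, as was true of 46.1% of all tested genes. In the fit over all Bc its log2 fold change, dura against pia, was -1.34 ± 0.24 (SE; edgeR adjusted p = 0.00685), and without the Ig-rich cells -1.40 (adjusted p = 0.00327). DESeq2 gave -1.41 with an adjusted p of 0.0562. Over the 19 alternatives run the adjusted p ran from 2.39e-10 to 0.670, with the same sign in all and the call kept in 14; it was lost with DESeq2, with 5 cells as the minimum and the Ig-rich cells left out, and without control pia, pia 24 h or control dura. In Tc the gene was level, at 619 and 566 CPM in pia and 607 and 616 in dura.

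Cd79b was at 615 and 661 CPM in pia and 1886 and 2158 in dura (control and 24 h, without the Ig-rich cells), and did not overlap. Its log2 fold change was 1.41 ± 0.23 (edgeR adjusted p = 0.00239; DESeq2 0.0805, range over alternatives 5.63e-11 to 0.542). Its partner Cd79a was not called (0.32 ± 0.18, adjusted p = 0.503). Spib, an ETS factor of the lineage, was at 199.9 and 256 in pia and 918 and 815 in dura, with a log2 fold change of 1.71 ± 0.37 (edgeR adjusted p = 0.0201; range over alternatives 1.83e-08 to 0.215, kept in 12 of 19). Spns3, a member of the spinster transporter family (4.46 ± 0.83; edgeR adjusted p = 0.00685, range 6.42e-06 to 0.0421, kept in the 17 alternatives that gave an adjusted p, which DESeq2 did not), had 1 UMI in the Bc of both pia libraries together and 39 and 75 in those of control dura and dura 24 h. Spread over 27 and 57 cells, its UMIs did not come from single cells.

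Lower in dura were Cd9, a tetraspanin of marginal zone and B-1 cells (323 and 384 CPM in pia, 70.6 and 54.5 in dura; log2 fold change -2.24 ± 0.36, edgeR adjusted p = 0.00232), and Plscr1, a phospholipid scramblase on the same list (277 and 192 against 21.2 and 60.0; -2.56 ± 0.54, adjusted p = 0.0166, range over alternatives 3.86e-05 to 0.484, kept in 15 of 19). Cd9 kept its call in 18 of 19 alternatives and lost it without pia 24 h (adjusted p over alternatives 3.10e-07 to 0.0573); it is also abundant in macrophages. Dusp1, a phosphatase that dampens stress kinases, was at 846 and 1172 CPM in pia and 282 and 313 in dura (-1.26 ± 0.26, edgeR adjusted p = 0.0135, range 2.81e-10 to 0.495, kept in 15 of 19). Of 17 measured B cell activation genes 2 were lower, the chemokines Ccl3 and Ccl4. In pia 24 h Bc, 41 of the 45 Ccl3 UMIs and 55 of the 61 Ccl4 UMIs came from 1 cell. No fit left out that cell alone, so its part in these calls was not tested. Ccl3 kept its call in 12 of 18 alternatives and Ccl4 in 15 of 19, and both lost it without pia 24 h. Without the Ig-rich cells 4 of the list were called lower, these chemokines together with the early-response factors Fos (log2 fold change -1.74 ± 0.33, edgeR adjusted p = 0.00354) and Junb (-1.12 ± 0.20, edgeR adjusted p = 0.00178). With all Bc, Fos and Junb were not called. Junb ran from -1.37 to -0.63 over 19 alternatives. MHC class II had no call among 10 genes, with a median of -0.60 and all 10 below 0, against a median of 0.06 over all genes.

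Markers of other cells moved with the same comparison. Of 8 tested macrophage markers 4 were lower in dura Bc and none higher, C1qa, C1qb, C1qc and Csf1r. The 13 macrophage markers summed, in Bc without the Ig-rich cells, to 10688 and 11912 CPM in pia and to 3496 and 3731 in dura, with Apoe the most abundant of them, and in Tc to 7187 and 3095 in pia and 3109 and 3415 in dura. Of 5 tested microglia markers Cx3cr1 and Sparc were lower, and all 5 had a log2 fold change below 0 (median -3.33). The 10 microglia markers summed to 215 CPM in control pia, 1492 in pia 24 h, 169 in control dura and 131 in dura 24 h, and in Tc to 280 and 121 in pia and 135 and 94.1 in dura. The Bc of pia 24 h were highest, and 6 of their 8 Cx3cr1 UMIs and 4 of their 7 Sparc UMIs came from 1 cell each; Cx3cr1 lost its call without pia 24 h or dura 24 h. Granulocyte markers went the other way: Ngp and S100a8 were called higher in dura Bc, the 12 markers summed to 46.1 and 107 in pia and to 530 and 867 in dura, and in Tc to 23.4 and 115 against 450 and 954. Their part in the other differences was not tested. Slpi and Prdx4, also called higher, were not abundant enough to be tested without the Ig-rich cells, and Ly6a, at a log2 fold change of 1.83, was at 0.07 without them and at -0.15 with all cells thinned.

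**Figure D4:**
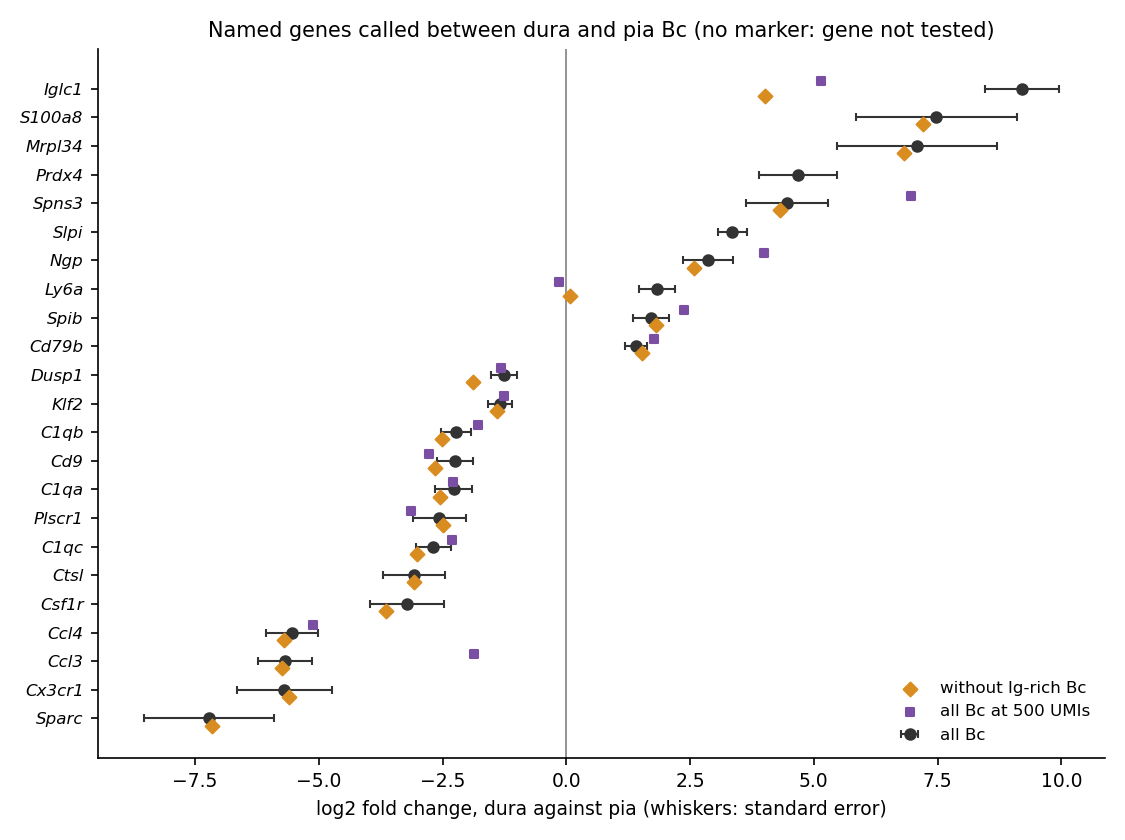
Log2 fold change of dura against pia Bc for the named genes that were called, with all Bc (circles, whiskers for the standard error), without the 39 Ig-rich cells (diamonds) and with all Bc thinned to 500 UMIs (squares); a missing marker means that the gene was not tested there. Klf2, Cd79b, Spib, Cd9, Dusp1 and the C1q genes keep their sign, with Spib at 1.71 for all Bc and 2.37 thinned. Iglc1 drops from 9.20 to 4.01 and Ly6a from 1.83 to 0.07 without the Ig-rich cells.

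To ask which of these differences go beyond what Tc of the same libraries show, the interaction of cluster and tissue was fitted with library as a block, a comparison added after the data were seen. Of 5850 genes 59 were called (1.01%), 22 with a higher dura-minus-pia value in Bc than in Tc (0.376%) and 37 with a lower one (0.632%); with library size alone the split was 5 and 76. Klf2 was among the latter, at -1.26 ± 0.25 (log2; edgeR adjusted p = 2.39e-04, -1.35 without the Ig-rich cells), together with Junb (-1.23 ± 0.18, kept in 14 of 19 alternatives), Dusp1 (-1.54 ± 0.27, kept in 15 of 19), Cd9 (-2.50 ± 0.49, kept in 13 of 19), Plscr1 (-2.52 ± 0.64, kept in 11 of 19) and the activation gene Cd83 (-1.05 ± 0.30), which kept its call in only 8 of 19 alternatives (-1.85 to -0.01) and lost it without control pia, control dura or brain 24 h replicate 2. DESeq2 called 1 gene, Ccl4, and gave Klf2 an adjusted p of 1.00. By the same edgeR test the macrophage markers C1qb (-1.48 ± 0.35, kept in 9 of 19) and C1qc (-2.23 ± 0.39, kept in 14 of 19) were lower. These were 2 of 10 tested, and 4 were called without the Ig-rich cells. The part of these markers in the other values was not tested. Over its 19 alternatives Klf2 kept its call in 12, with adjusted p from 3.77e-08 to 1.00, and lost it in 4 of the 6 fits that left out a library. The Tc values of Junb were 4881 and 6653 CPM in pia and 6689 and 8168 in dura, where those of Bc without the Ig-rich cells were 6105 and 7714 against 2733 and 4339.

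Bc of the brain differed from those of the membranes in many genes, which cannot be told apart from the library set. Of 3739 genes 1576 were called between dura and brain (42.2%), 636 higher in dura (17%) and 940 lower (25.1%), by edgeR in the fit of 6 libraries. Between pia and brain it called 825 (22.1%), 341 higher in pia (9.12%) and 484 lower (12.9%); DESeq2 called 446 and 278. Without dura 24 h the dura-brain count was 302 of 3943 (7.66%), 173 higher and 129 lower, and Pax5 was not among them. In a fit of the 6 libraries of 1 set, with the brain represented by its 2 libraries of 7 Bc, the minimum lowered to 5 cells and the Ig-rich cells left out, 30 and 26 of 1093 genes were called; this alternative was chosen after the data were seen and changes these 3 choices together. With library size alone as the scaling, the median of all genes between dura and brain moved from -0.07 to -0.62 and the split from 636 higher and 940 lower to 267 and 1378. Pax5, which maintains B cell identity, was at 556 and 447 CPM in brain 24 h replicate 2 and brain 72 h and at 42.6 to 91.8 in pia and dura, while control brain and brain 24 h replicate 1 had 0 UMIs and 1 UMI of it, too few to place them. Its log2 fold change, dura against brain, stayed between -4.05 and -2.60 over 19 alternatives. Cd74, the invariant chain of MHC class II, divided the brain libraries, at 7767 and 9334 CPM in brain 24 h replicate 2 and brain 72 h and at 37293 and 71007 in control brain and brain 24 h replicate 1, beside 34434 to 54746 in pia and dura. Its log2 fold change, dura against brain, was 2.00 ± 0.27 (edgeR adjusted p = 1.67e-05) in the 6 libraries of at least 30 Bc and -0.31 (adjusted p = 0.672) in the 6 libraries of 1 set.

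Markers of other cells moved with the brain comparisons too. All 5 tested microglia markers were lower in dura than in brain Bc (median log2 fold change -3.21), and none of them was called between pia and brain. The 10 microglia markers summed to 863 and 1002 CPM in brain 24 h replicate 2 and brain 72 h, to 9688 and 703 in control brain and brain 24 h replicate 1, and to 131 to 1492 in the membranes, without the Ig-rich cells, and in Tc of the 4 brain libraries to 646, 875, 2257 and 1028 in the same order. All 4 tested hemoglobin genes were lower in dura and in pia than in brain Bc (medians -3.70 and -7.32). The list of erythroid and platelet markers, led by Hbb-bs, was at 505 and 973 CPM in brain 24 h replicate 2 and brain 72 h and at 0 in the other 2 brain libraries, and at 535 and 555 in Tc of the first pair. Of 8 tested macrophage markers Apoe, C1qb, C1qc and Ctsb were higher in pia than in brain Bc and none lower, while between dura and brain Apoe was higher and C1qa and Csf1r were lower. The macrophage markers summed to 1466 and 2863 CPM in brain 24 h replicate 2 and brain 72 h, beside the membrane sums given above. The part of these markers in the other differences was not tested.

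Klf2 was higher in the Bc of every brain library than in those of every membrane library. The membrane libraries all belong to 1 set, in which the brain is represented by 2 libraries of 7 Bc, and digestion differed between brain and membranes in every library and cannot be told apart from the tissue. It was at 5043 CPM in control brain, 7733 in brain 24 h replicate 1, 2530.5 in brain 24 h replicate 2 and 3899.7 in brain 72 h, all 4 above the highest membrane value of 1538. Of all tested genes, 75.3% did not overlap between dura and brain and 64.5% between pia and brain. The 2 libraries of 7 Bc rest on 38 UMIs in 7 cells and 55 UMIs in 6 cells, 23 of the 55 in 1 cell. Dura Bc were lower than brain Bc by 2.64 on the log2 scale (a log2 fold change of -2.64 ± 0.26; edgeR adjusted p = 1.64e-06, DESeq2 4.55e-08), and by a log2 fold change of -3.23 (adjusted p = 2.98e-29) in the 6 libraries of 1 set. All 20 alternatives kept this call, with adjusted p from 2.98e-29 to 0.00505. Between pia and brain the log2 fold change was -1.30 ± 0.26 (edgeR adjusted p = 0.00246), and 16 of 19 alternatives kept the call (adjusted p 2.64e-10 to 0.293). In Tc the order of tissues was similar but the range smaller, 1290.0, 1542, 786 and 1038 CPM in the same brain libraries against 566 to 619 in the membranes.

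**Figure D5:**
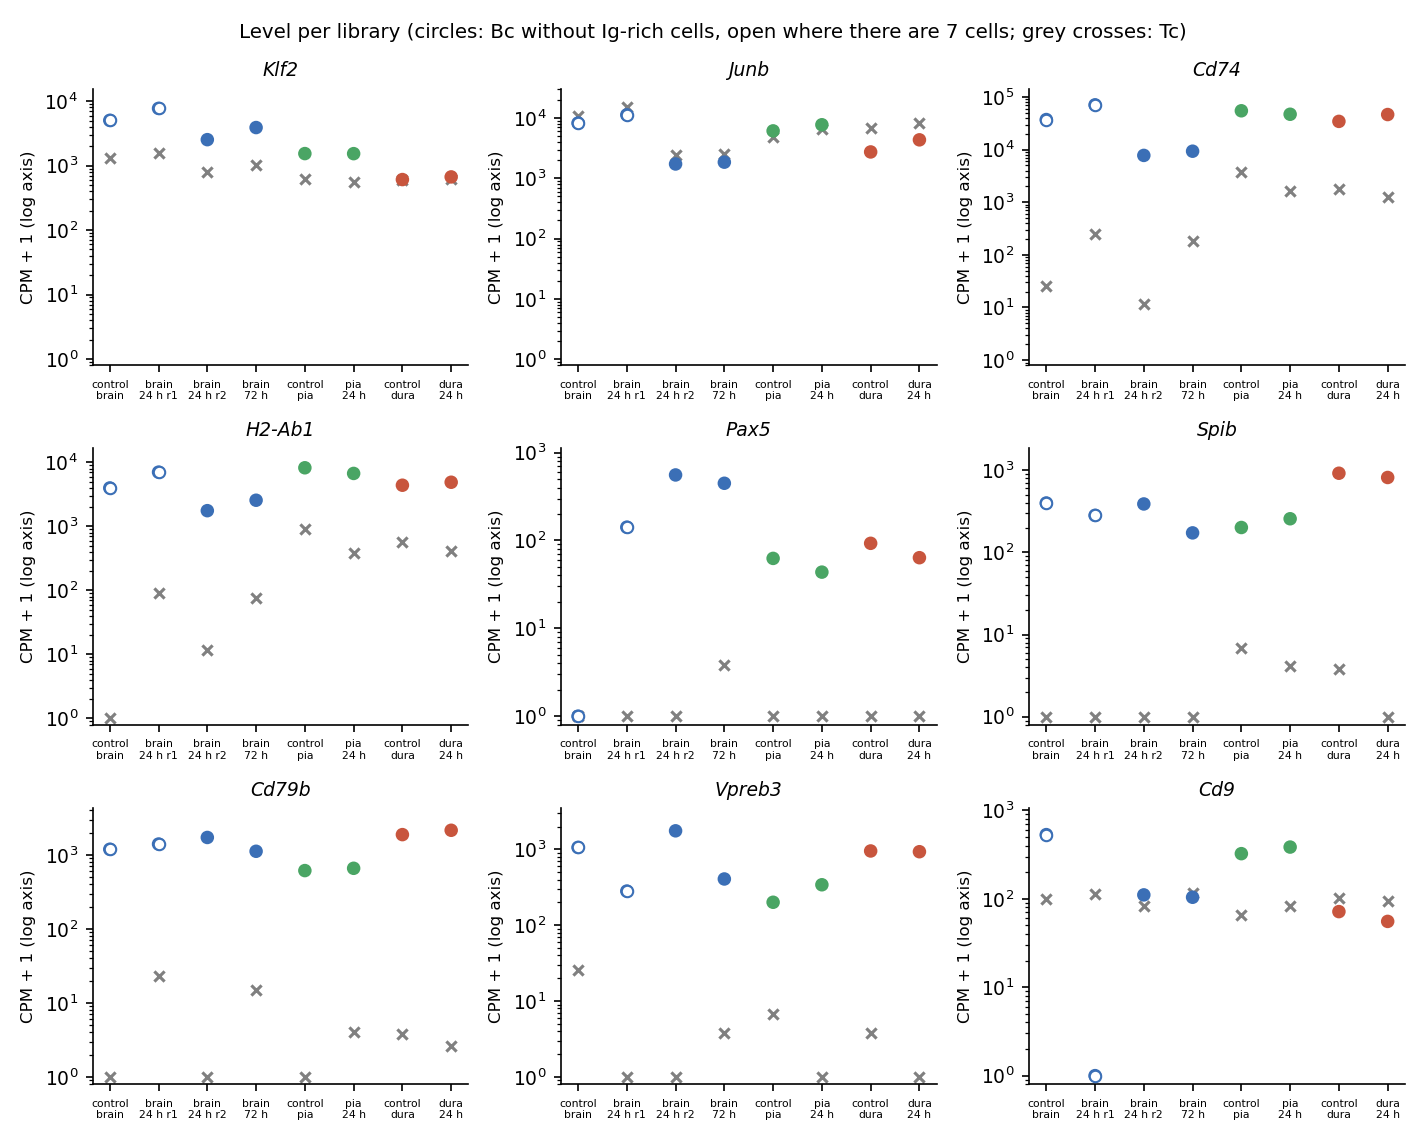
Level of 9 genes in CPM + 1 on a logarithmic axis, by library, as circles for Bc without the Ig-rich cells (open for the 2 libraries of 7 Bc) and grey crosses for Tc. Klf2 lies at 2530.5 or more in all 4 brain libraries and at 607 and 668 in dura, where Bc and Tc coincide, while Cd74 divides the brain libraries by set.

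The difference between dura and brain was then tested against that of Tc. Of 5850 genes 83 were called (1.42%), 45 with a higher dura-minus-brain value in Bc (0.769%) and 38 with a lower one (0.65%), and 28 without the Ig-rich cells; DESeq2 called 1, Ly6c2, with 87 genes under an unadjusted p of 0.05. With library size alone the split was 22 and 379. Klf2 was lower by -1.84 ± 0.25 (log2; edgeR adjusted p = 4.43e-10, and -1.65 without the Ig-rich cells), and 17 of 20 alternatives kept it (adjusted p 1.05e-12 to 1.00; the 2 DESeq2 fits and the minimum of 5 cells without the Ig-rich cells did not). The MHC class II genes H2-Ab1, H2-Eb1 and H2-Aa were also lower, at -2.22 ± 0.31, -2.23 ± 0.36 and -1.66 ± 0.31, 3 of 10 tested. H2-Ab1 kept its call in 16 of 20 alternatives, H2-Eb1 in 14 and H2-Aa in 13. The Tc values differed more than those of Bc. The 10 MHC class II genes summed to 68.2 and 469 CPM in Tc of brain 24 h replicate 2 and brain 72 h and to 3150 and 2234 in Tc of control dura and dura 24 h, although mouse T cells are not known for MHC class II, and in Bc without the Ig-rich cells to 14583 and 19745 against 47484.5 and 61804. In control brain and brain 24 h replicate 1 the Bc sums were 49768 and 92238, the first between those of the 2 dura libraries and the second above both, and the Tc sums 174 and 469. Rgs1, which dampens chemokine receptor signals, was at 271 and 349 CPM in brain Bc of 24 h replicate 2 and 72 h, at 398 and 281 in control brain and brain 24 h replicate 1 (3 and 2 UMIs), and at 141 and 60.0 in dura Bc, and had an interaction of -2.66 ± 0.40. Jun was higher (2.24 ± 0.28). Over 20 alternatives Rgs1 kept its call in 14 and Jun in 16, and both lost it with 1 library set. Xbp1, Ly6c2, Ly6a and Cxcl10 were called with all Bc and not without the Ig-rich cells.

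The comparison of 24 h after MCAO with control, within tissues, was fitted on 5 libraries with 1 residual degree of freedom. Brain has no control of at least 30 Bc, so its library is taken up by its own tissue term. The change is thus measured in the 4 libraries of dura and pia. Of 5328 genes 21 were called by edgeR (0.394%), 13 higher (0.244%) and 8 lower (0.15%) after MCAO, with 355 under an unadjusted p of 0.05; DESeq2 called 0, with 20 under that limit, and 9 were called by edgeR without the Ig-rich cells. The largest, Ighg1, Ighg2c and Ighg2b, are heavy chains that led in 2, 2 and 1 Ig-rich cells, and Ccl3 and Ccl4 are the chemokines of the pia cell named above. None of 19 tested receptor genes, 14 transcription factors or 10 MHC class II genes was called, nor any of 9 interferon response genes, all 9 of which had a log2 fold change below 0 (median -0.93, against 0.01 over all genes). Klf2 did not pass (0.08 ± 0.18, adjusted p = 1.00).

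Serinc3 and Bhlhe41 were called with and without the Ig-rich cells, and their libraries do not overlap by condition, as was true of 4 of the 21 called genes and of 14.5% of all tested genes. Serinc3, a membrane protein of the serine incorporator family, fell from 1688 CPM in control dura to 616 in dura 24 h and from 984 in control pia to 384 in pia 24 h (log2 fold change -1.45 ± 0.19; edgeR adjusted p = 4.14e-11, DESeq2 1.00, kept in 8 of 12 alternatives). It was lower after MCAO in Tc as well, at 277 against 615 in dura, 174 against 479 in pia, and 246, 330.2 and 142 in the 3 brain libraries after MCAO against 447 in control brain. Bhlhe41, a repressor with a role in B-1 cells, stood at 219 CPM in control dura and 43.6 in dura 24 h, and at 108 in control pia and 21.3 in pia 24 h (log2 fold change -2.33 ± 0.47; edgeR adjusted p = 2.30e-04, DESeq2 1.00, kept in 5 of 12). In Tc it did not pass 22.4 CPM in any library. Over all Bc, control pia had 8 UMIs in 5 cells and pia 24 h 1 UMI, and control dura had 35 UMIs in 15 cells and dura 24 h 18 in 14.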

How the data were processed

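The authors deposited, for each of the 8 libraries, UMI counts per gene and barcode made with Cell Ranger 6.0 against mm10, and a table assigning 32457 of 36854 barcodes to 21 clusters. Per the study's methods, barcodes were filtered on gene number and mitochondrial share and doublets were removed before clustering. No further cell filter or doublet caller was applied here. Library totals ranged from 6591898 to 20754181 UMIs. Counts of the 30406 genes shared by all libraries were summed per library and cluster. Libraries with at least 30 Bc were compared with edgeR 4.0.16 (quasi-likelihood, robust, filterByExpr, TMM) in R 4.3.3, with tissue and condition as terms. DESeq2 1.42.0 was an alternative. A gene was called where p, adjusted by the Benjamini-Hochberg method, was under 0.05 and the change reached 2-fold. Intervals were exact at 95% (binomial or Poisson, scipy 1.17.1), and a count of 0 was given a limit of 3. Named genes were the members of the gene lists, in each contrast the 5 highest and 5 lowest called genes without overlap between libraries, the 15 highest and 10 lowest ratios to Tc, and the 10 most abundant genes. On simulated counts with 200 genes changed 4-fold, edgeR recovered 63.0% for dura against pia and DESeq2 32.5% (3739 genes), 75.5% and 30.0% for dura against brain (3739 genes), 39.5% and 15.5% for pia against brain (3739 genes), and 56.0% and 14.0% for 24 h against control (5328 genes). For the differences beyond Tc (5850 genes) they recovered 38.0% and 5.5% (dura against brain) and 32.0% and 9.0% (dura against pia). The members, gene lists and tests were chosen with earlier results of these data known.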

Additional observations from a re-analysis of the deposited data

Results flagged for a closer look

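The difference between dura and brain was not the same in Bc as in Tc for 83 genes by the edgeR interaction test, among them Klf2 (-1.84 on the log2 scale) and H2-Ab1 (-2.22). Between dura and pia it was not the same for 59 genes, Klf2 among them (-1.26). Without the Ig-rich cells these counts were 28 and 54, of which 23 and 41 were among the 83 and 59. DESeq2 called 1 gene in each of these tests.

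Barcodes outside the annotation also held B cell transcripts. Of 4397 barcodes without a cluster, 89 had at least 2 UMIs of Cd79a, against 743 of 1035 Bc and 0 of 1830 Tc, and 5 were over 20% immunoglobulin. Of these 5, 2 from control brain had 69 and 109 genes, 2 from control dura had 2371 and 2811 genes, and 1 from dura 24 h had 19701 UMIs with 2793 genes. The annotated cells of control dura and dura 24 h did not pass 2499 and 2449 genes, so 1 of the 5 lay above that limit in each of these libraries.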

How the results depend on the processing

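The number of genes called depended on the tool, the cells and the libraries, and the cause was not tested. Alternatives without Ig-rich cells, with a minimum of 5 cells or with the 6 libraries of 1 set were chosen after seeing the data. Every fit given below as 5 cells also left out the Ig-rich cells, and every fit given as 1 library set did both, so these counts do not belong to a single choice. Thinning also lowered the number of genes tested, to 1678 for the tissue comparisons, of which 37.7% were called between dura and brain and 22.8% between pia and brain, against 42.2% and 22.1%. Between dura and pia the thinned share was higher, 3.52% against 1.39%, and with 1 library set it was 7.32% of 1093 genes. The fit of cells without markers of other types held 4 libraries, none of pia, with 1798 genes tested for dura against brain, of which 39.9% were called. Thinned fits tested 2382 genes for the differences beyond Tc and 2255 for 24 h against control, where the fits of all UMIs tested 5850 and 5328. Dura against brain (1576 genes) gave 446 with DESeq2, 718 with cells without markers of other types, 633 thinned, 374 with DESeq2 and 634 thinned without Ig-rich cells, 587 with 5 cells, 30 with 1 library set, and 302 (without dura 24 h) to 1964 leaving out each library. Dura against pia (52) gave 15 with DESeq2, 113 with library size alone, 101 without a filter, 29 with DESeq2 without Ig-rich cells, 27 with 5 cells, 80 with 1 library set, and 35 to 156 leaving out each library (156 without brain 72 h, 121 without brain 24 h replicate 2). Pia against brain (825) gave 278 with DESeq2, 383 thinned, 250 with DESeq2 and 386 thinned without Ig-rich cells, 196 with 5 cells, 26 with 1 library set, and 286 to 803 leaving out each library; with library size alone 253 were higher and 626 lower, against 341 and 484. For 24 h against control (21), DESeq2 called 0 (20 at an unadjusted p under 0.05, where edgeR had 355), library size alone 7, thinning 5, and leaving out immunoglobulin and mitochondrial genes 10. Leaving out brain 24 h replicate 2 gave 4, with 2420 genes tested in place of 5328. Without Ig-rich cells this comparison gave 9, with DESeq2 0 (18 unadjusted), thinned 3, with 5 cells 0 (13 unadjusted) and with 1 library set 8. The dura-brain difference beyond Tc (83) gave 1 with DESeq2, 401 with library size alone, 12 with cells without markers of other types, 10 thinned, 28 without Ig-rich cells, 0 with DESeq2 (29 unadjusted) and 6 thinned without them, 15 with 5 cells, 11 with 1 library set and 26 to 77 leaving out each library. The dura-pia difference beyond Tc (59) gave 1 with DESeq2, 34 without a filter, 21 thinned, 1 with DESeq2 and 20 thinned without Ig-rich cells, 17 with 5 cells, 34 with 1 library set and 18 to 69 leaving out each library. Bc against Tc (748) gave 731 to 856 leaving out each library.

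Shares of Bc outside the microglia clusters were 1.24%, 0.442%, 11.0% and 3.21% in control brain, brain 24 h replicates 1 and 2 and brain 72 h. Among lymphoid clusters the 8 shares were 10.3%, 9.72%, 36.8%, 24.0%, 21.4%, 8.21%, 13.9% and 18.7%, in the order control brain, brain 24 h replicates 1 and 2, brain 72 h, control pia, pia 24 h, control dura and dura 24 h. Among cells of at least 1000 UMIs the last 6 of these libraries had 7.72%, 1.37%, 1.41%, 0.559%, 2.94% and 4.44%. With 1000 UMIs per cell, and then without thinning, Vpreb3 was in 59.6% and 67.7% of Bc of brain 24 h replicate 2, 36.5% and 37.9% of control dura and 35.5% and 36.5% of dura 24 h, and without thinning in 26.1% of brain 72 h. Ighd was in 27.4% and 34.8% of Bc of brain 24 h replicate 2 and 34.8% and 37.9% of brain 72 h, and without thinning in 20.9% of control dura and 22.1% of dura 24 h. The pro-B and pre-B set at 1000 UMIs was in 0% of brain 72 h and 12.4% of dura 24 h.

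Signs reversed for few genes. Between dura and brain, Sparc ran from -7.37 (without pia 24 h) to 0.44 (without dura 24 h) leaving out each library and Cd74 at -0.31 with 1 library set. Ly6a between dura and pia was at -0.15 thinned and -0.47 thinned without Ig-rich cells. For 24 h against control, Ighg2b was at 0.12 with DESeq2, Igha at -1.20, -0.25 (DESeq2), -0.89 (thinned), -3.80 (5 cells) and -2.01 (1 library set) without Ig-rich cells, Iglc2 at -0.19 thinned and at -0.59, -0.83, -0.42, -0.71 and -0.66 in those same fits, and Ccl3 at -0.46 thinned and -0.47 thinned without Ig-rich cells. Beyond Tc, Cxcl10 was at -1.77 and -1.22 (DESeq2) without Ig-rich cells, Ctla4 at -0.87 with cells without markers of other types and from -1.43 (without dura 24 h) to 5.001 (without pia 24 h) leaving out each library, and Wfdc17 at 0.13 with 1 library set.

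Tissues and conditions were not paired by mouse, because only brain 24 h has more than 1 replicate and no label ties libraries to the same mice. The tissue fits carried condition as a term. With kit version in place of condition, 1620 genes were called between dura and brain, 76 between dura and pia and 946 between pia and brain. Between dura and pia, Ccl3, Ccl4 and Ly6a lost their call in that fit. Bc and Tc were compared within libraries, with library as a block. The fit of cells without markers of other types was not run for dura against pia, pia against brain, 24 h against control and the dura-pia difference beyond Tc, and for 24 h against control only brain 24 h replicate 2 was left out. Most states have 1 library, so the spread within a state rests on the model, and the 2 libraries of 7 Bc limit what can be placed for any gene of low abundance.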
